A study of Homo sapiens with 18 samples.

Results

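The genes described here are the components of the WNT pathway carried by the Affymetrix human genome array used: every probe set whose single gene symbol in the platform annotation begins with WNT, FZD, DKK, SFRP, DVL, AXIN, TCF7 or TLE followed by a number where one applies, or is APC, CTNNB1, LEF1, GSK3A, GSK3B, LRP5, LRP6, CSNK1A1 or BTRC. The rule takes names and no measured value. It found 95 probe sets of 50 genes among 22283 probe sets, and 62 of these probe sets, from 35 genes, passed the filter on low signals (at least 50 on at least 3 of the 18 arrays). Some genes of these families, among them AXIN2, TCF7 and FZD8, had no probe set that met the rule and are not analysed here, and DKKL1 was left out because no number follows its stem.

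The arrays were hybridized with RNA of SK-N-MC, a human tumor cell line labelled as neuroepithelioma, grown without sodium pyruvate. Cells were kept for 1 week or 4 weeks with vehicle (0.05% ethanol), with 5 nM rotenone, which the labels call non-lethal and the study's methods marginally lethal to these cells, or with 50 nM, which kills more of them. Rotenone inhibits complex I of the mitochondrial respiratory chain. Each of the 6 groups had 3 arrays, each hybridized with a pool of 5 dishes of 1 of 3 experiments, so n = 3 pools a group throughout and the p-values measure the spread between pools of 1 cell line.

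WNT proteins are secreted ligands that bind Frizzled (FZD) receptors and the coreceptors LRP5 and LRP6, and secreted DKK and SFRP proteins hold them back. Without a signal, a destruction complex of APC, AXIN and the kinases GSK3A, GSK3B and CSNK1A1 marks β-catenin (CTNNB1) for the ubiquitin ligase subunit BTRC, and the TLE corepressors sit on the LEF/TCF factors at target genes. With a signal, Dishevelled (DVL) proteins disable the complex, and β-catenin enters the nucleus and takes the place of TLE. The pathway is known for its part in the growth and patterning of the neural crest and the midbrain.

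The LEF/TCF factors bind a core element, searched here as AACAAAG, or as ATCAAAG, or as TACAAAG, or as TTCAAAG, on both strands of the RefSeq promoter windows (250 bases before to 50 after each annotated start, build GRCh38.p14). Windows were found for 36 of the 50 genes, 48 windows in all, and 3 of the 48 held the element (6.25%), against 9.38% of the windows of all genes that passed the filter and 13.8% of all RefSeq windows. The 3 belong to DKK1, TLE4 and an internal start of TCF7L2. The windows of DKK1 and TCF7L2 are shown because they carry the element in an inhibitor whose signal was not called and in a factor whose signal was, and that of LEF1 because its signal had the largest fold among the factors with 5 nM at 4 weeks and its window held no match. They are printed 5′ to 3′ on the gene's strand with the element in capitals. The window of DKK1 is at chr10:52314031-52314330 (+ strand), with matches starting 95 and 76 bases before the start. That of TCF7L2 is at chr10:113126383-113126682 (+ strand), with 1 match, and that of LEF1 is at chr4:108166252-108166551 (− strand). A match is a run of letters, not a shown binding site.
DKK1: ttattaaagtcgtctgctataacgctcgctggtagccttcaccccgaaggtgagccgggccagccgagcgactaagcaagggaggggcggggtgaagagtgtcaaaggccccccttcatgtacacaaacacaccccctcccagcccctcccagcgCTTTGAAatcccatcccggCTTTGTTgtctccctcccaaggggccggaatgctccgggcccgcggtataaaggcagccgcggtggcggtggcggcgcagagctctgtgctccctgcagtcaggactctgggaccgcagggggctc
TCF7L2: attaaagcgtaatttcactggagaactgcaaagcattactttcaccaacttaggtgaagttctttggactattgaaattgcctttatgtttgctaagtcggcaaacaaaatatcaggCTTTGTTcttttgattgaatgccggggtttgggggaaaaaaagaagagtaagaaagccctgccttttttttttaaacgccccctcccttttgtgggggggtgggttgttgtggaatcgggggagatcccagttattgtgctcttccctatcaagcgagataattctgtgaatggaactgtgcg
LEF1: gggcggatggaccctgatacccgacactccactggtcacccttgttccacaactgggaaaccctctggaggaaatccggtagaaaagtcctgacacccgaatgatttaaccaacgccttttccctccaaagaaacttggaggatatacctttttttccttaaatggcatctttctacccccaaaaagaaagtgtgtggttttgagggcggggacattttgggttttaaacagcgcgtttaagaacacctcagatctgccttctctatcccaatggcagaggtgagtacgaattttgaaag

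Facts of the arrays that bear on the values are these. Array medians lay between 87.0 and 101.5 signal units. Within groups the lowest correlation between arrays was 0.908 among the 1-week vehicle arrays and 0.965 to 0.991 elsewhere. Replicate 3 of the 1-week vehicle differed from the mean of the other 2 by 0.67 log2 units (root mean square over all probe sets tested) and by 0.72 over the pathway probe sets, the highest of any array, and it held the lowest signal of its group for DKK3, FZD1, FZD3, LEF1 and TCF7L1 on the probe sets described below. The array weights, 1 of the alternatives below, were instead lowest for replicate 1 of that vehicle (0.0088, against 0.70 for replicate 2 and 0.14 for replicate 3). The 18 hybridization-control probe sets, which report RNA added at the array facility, averaged 8.69 to 9.10 on the log2 scale on the 6 arrays of rotenone at 4 weeks and 9.69 to 10.12 on the other 12. Each 1-week rotenone array correlated better with the other arrays of its own label than with those of the other dose, with the smallest margin for replicate 3 of 50 nM (0.980 against 0.979). The part of these differences in the results below was not tested. The lower hybridization controls fall on exactly the 6 arrays of rotenone at 4 weeks. In the comparisons with vehicle at 4 weeks their part therefore cannot be told apart from that of rotenone. Markers of the Ewing family of tumors were at high signal (CD99 at 2067 to 3471 and NKX2-2 at 816 to 2005), while of 7 neuroblast markers PHOX2A, TH and HAND2 stayed at or below 30.1 on all 18 arrays, and GATA3 was at 109.6 to 206, MYCN at 61.6 to 169.7, CHGB at 40.8 to 79.2 and DBH at 25.6 to 67.0. These are bulk RNA samples, in which fewer cells with a transcript cannot be told apart from less transcript in each cell.

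Of the 62 probe sets tested, 4 rose and 1 fell with 5 nM at 1 week (6.45% and 1.61%), and 4 rose and 10 fell with 50 nM at 1 week (6.45% and 16.1%). After 4 weeks 14 rose and 10 fell with 5 nM (22.6% and 16.1%), and 16 rose and 12 fell with 50 nM (25.8% and 19.4%). Over all 13705 probe sets tested the share that rose was 4.79% and the share that fell 1.88% with 5 nM at 1 week, 8.23% and 13.6% with 50 nM at 1 week, 18.3% and 14.1% with 5 nM at 4 weeks, and 22.9% and 18.1% with 50 nM at 4 weeks. The shares of the pathway were near those of all probe sets, and the description below concerns which of its parts rose and which fell. A call is an adjusted p below 0.05 in limma across all probe sets tested. Changes of at least 2-fold were found for 2 rises with 5 nM at 1 week, for 1 rise and 1 fall with 50 nM at 1 week, for 3 rises with 5 nM at 4 weeks and for 6 rises and 5 falls with 50 nM at 4 weeks. At 1 week 2-fold rises and falls over all 13705 numbered 164 and 20 with 5 nM, and 140 and 332 with 50 nM. At 4 weeks they numbered 526 and 421 with 5 nM, and 823 and 648 with 50 nM. In all, 39 probe sets of 27 genes were called in at least 1 comparison with vehicle, and 8 of the 35 genes in none. The like counts over all probe sets were not made. The 1-week counts depend on the vehicle arrays: without its replicate 3, the call count was 24 with 50 nM against 14 with it, and 4 against 5 with 5 nM. Of the 17 calls of named genes at 1 week, 2 held with the 4-week vehicle in place of the 1-week vehicle, 9 were lost and 6 changed sign.

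**Figure D1:**
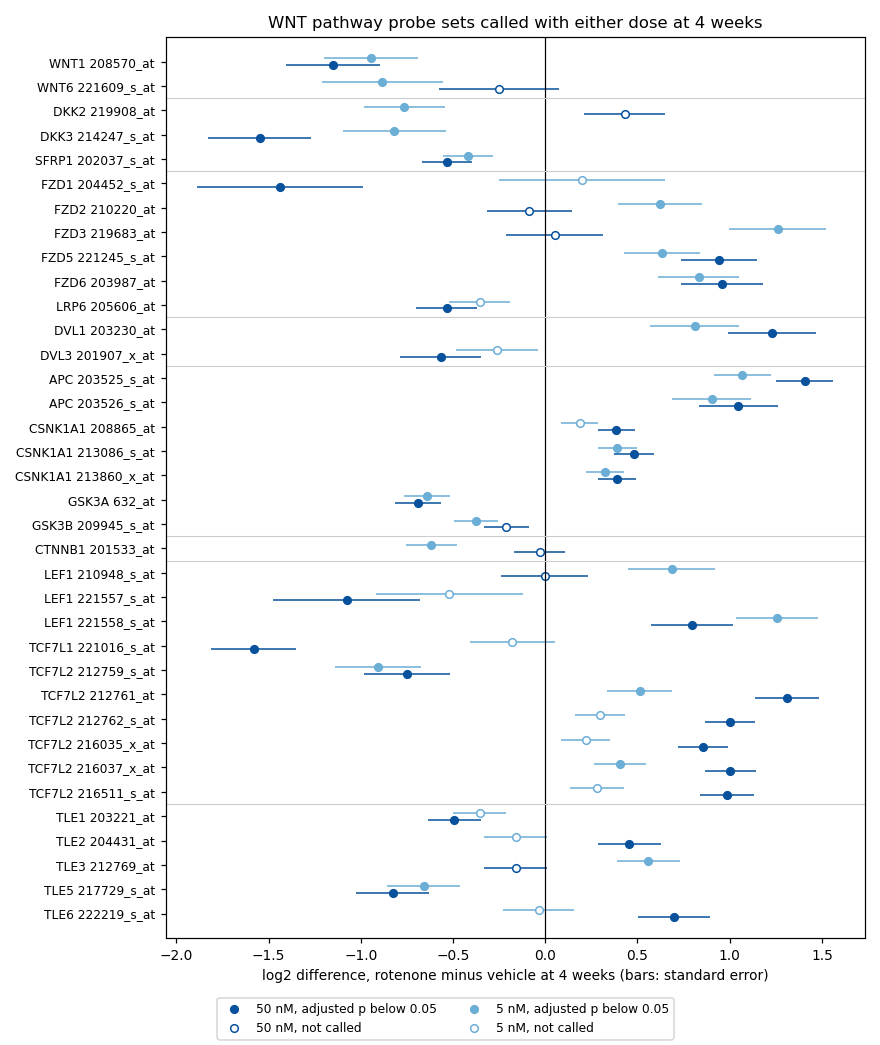
Log2 difference from the 4-week vehicle (x axis, points, with standard errors as bars) of the 36 pathway probe sets called with at least 1 dose at 4 weeks, in order of role: ligands, secreted inhibitors, receptors, DVL, destruction complex, CTNNB1, LEF/TCF and TLE. Light points are 5 nM, dark points 50 nM, and open points were not called. With both doses 16 probe sets were called the same way, and both comparisons use the same vehicle arrays. The like count over all probe sets was not made.

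Among the ligands, WNT1 fell with both doses at 4 weeks. Of 13 ligand genes measured by 18 probe sets, 3 genes with 5 probe sets passed the filter (WNT1, WNT5A and WNT6), and the other 13 probe sets stayed between 1 and 56.5 signal units. WNT1, the founding member of the family and a midbrain patterning signal, was at 52.0, 46.0 and 52.6 in the 4-week vehicle, at 32.2, 25.3 and 21.6 with 5 nM and at 17.0, 18.6 and 36.2 with 50 nM. Every rotenone array was below every vehicle array. WNT1 fell by 0.95 ± 0.25 log2 units with 5 nM (SE, adjusted p = 0.0085) and by 1.15 ± 0.25 with 50 nM (adjusted p = 0.0016). Its signals are near the lower end of what was tested, with 5 of 18 arrays at 50 or more.

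The other ligands changed less. WNT5A, which acts mostly outside the β-catenin branch, was at 353, 289.6 and 350.4 with 5 nM at 1 week on its brighter probe set, against 241, 266 and 132 in the 1-week vehicle, a rise of 0.69 ± 0.20 log2 units (adjusted p = 0.0499). Its second probe set was not called, and neither was called at 4 weeks. WNT6 was called with 5 nM at 4 weeks on 1 of its 2 probe sets (-0.88 ± 0.33, adjusted p = 0.046), and there 1 array had 39.5 where the other 2 had 133.1 and 145.8, against 164, 161 and 182 in vehicle. The call of WNT5A against the 1-week vehicle was lost without any 1 of 15 arrays (adjusted p = 0.0518 to 0.133) and that of WNT6 without any 1 of 13 (adjusted p = 0.0505 to 0.262).

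The secreted inhibitors DKK2 and DKK3 rose with both doses at 1 week; at 4 weeks DKK3 fell with both and DKK2 with 5 nM. Both antagonize or modulate WNT reception, DKK2 through LRP5 and LRP6. DKK2 was at 165, 96.2 and 108 in the 1-week vehicle, at 228, 289 and 255 with 5 nM and at 176, 189.8 and 195 with 50 nM, and at 4 weeks at 267, 293 and 287 in vehicle, at 198, 133.4 and 173 with 5 nM and at 328, 303 and 555 with 50 nM. The groups with rotenone did not overlap the vehicle of their week. DKK2 rose by 1.10 ± 0.22 log2 units with 5 nM at 1 week (adjusted p = 0.0069) and by 0.64 ± 0.22 with 50 nM (adjusted p = 0.044), fell by 0.77 ± 0.22 with 5 nM at 4 weeks (adjusted p = 0.013), and with 50 nM at 4 weeks differed by 0.43 ± 0.22, which was not called (adjusted p = 0.126). DKK2 lies on chromosome 4, whose probe sets tested had a median of 0.29 with each dose at 4 weeks. Less that median DKK2 was at -1.05 with 5 nM and at 0.14 with 50 nM.

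DKK3, which is reduced in many tumors, was dim: 35.0, 38.6 and 13.9 in the 1-week vehicle, 64.4, 60.6 and 69.8 with 5 nM and 60.4, 55.1 and 59.6 with 50 nM, and 68.3, 68.8 and 69.7 in the 4-week vehicle, 48.0, 49.3 and 25.3 with 5 nM and 22.5, 23.6 and 24.7 with 50 nM. The dose groups again lay apart from their vehicle at both times. DKK3 reached 50 signal units on 9 arrays, those of both doses at 1 week and of the 4-week vehicle. The arrays of the 1-week vehicle and of both doses at 4 weeks all lay below 50. DKK3 therefore passed the filter only through the groups in which it was higher. The rise was 1.22 ± 0.28 log2 units with 5 nM and 1.07 ± 0.28 with 50 nM at 1 week (adjusted p = 0.014 and 0.012), and at 4 weeks DKK3 fell by 0.82 ± 0.28 with 5 nM (adjusted p = 0.032) and by 1.55 ± 0.28 with 50 nM (adjusted p = 0.00033). Its 4 other probe sets stayed at or below 34.9 on every array.

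The vehicle itself was higher at 4 weeks than at 1 week for DKK2 (by 1.24 ± 0.22, adjusted p = 0.0036), for DKK3 (by 1.31 ± 0.28, adjusted p = 0.014) and for the brighter probe set of WNT5A (by 0.88 ± 0.20, adjusted p = 0.023), the 3 pathway probe sets called between the vehicles, where 3.26% of all were called. That of WNT5A was lost without any 1 of the 4-week vehicle arrays (adjusted p = 0.0696 to 0.0975). Set against the 4-week vehicle, the 1-week rotenone arrays gave -0.14 for DKK2 and -0.088 for DKK3 with 5 nM, and -0.60 and -0.24 with 50 nM, and none of these was called. Without replicate 3 of the 1-week vehicle the rise of DKK2 was 1.02 with 5 nM (adjusted p = 0.011) and 0.57 with 50 nM (adjusted p = 0.067), and that of DKK3 was 0.82 (adjusted p = 0.027) and 0.67 (adjusted p = 0.0301). The call of DKK2 with 50 nM at 1 week was lost without any 1 of 10 of the 18 arrays (adjusted p = 0.0507 to 0.167). Leaving out replicate 2 or 3 of 5 nM at 1 week ended the call of DKK3 there (adjusted p = 0.0531 to 0.0537). At 4 weeks the call of DKK3 with 5 nM was lost without any 1 of the 3 vehicle arrays or replicate 3 of 5 nM (adjusted p = 0.0719 to 0.171), and that of DKK2 without replicate 2 of 5 nM (adjusted p = 0.0664).

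DKK1 and SFRP1 are the other inhibitors that passed the filter. DKK1, a target of the pathway that blocks LRP6, was at 56.4 to 89.6 on the 18 arrays and was called in no comparison. SFRP1, which binds WNT proteins, fell at 4 weeks on the 1 of its 3 probe sets that passed the filter: 113, 99.5 and 94.3 in vehicle, 76.9, 71.5 and 81.0 with 5 nM, and 70.1, 71.6 and 70.2 with 50 nM (-0.42 ± 0.14, adjusted p = 0.025, and -0.53 ± 0.14, adjusted p = 0.0049). The call with 5 nM was lost without replicate 1 or 2 of vehicle or of 5 nM (adjusted p = 0.0544 to 0.111). SFRP1 lies on chromosome 8, whose probe sets tested had a median of 0.34 with 5 nM and -0.27 with 50 nM at 4 weeks. Less that median SFRP1 was at -0.76 with 5 nM and at -0.26 with 50 nM, which turns the order of the doses. DKK4, SFRP4 and SFRP5 did not pass the filter.

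**Figure D2:**
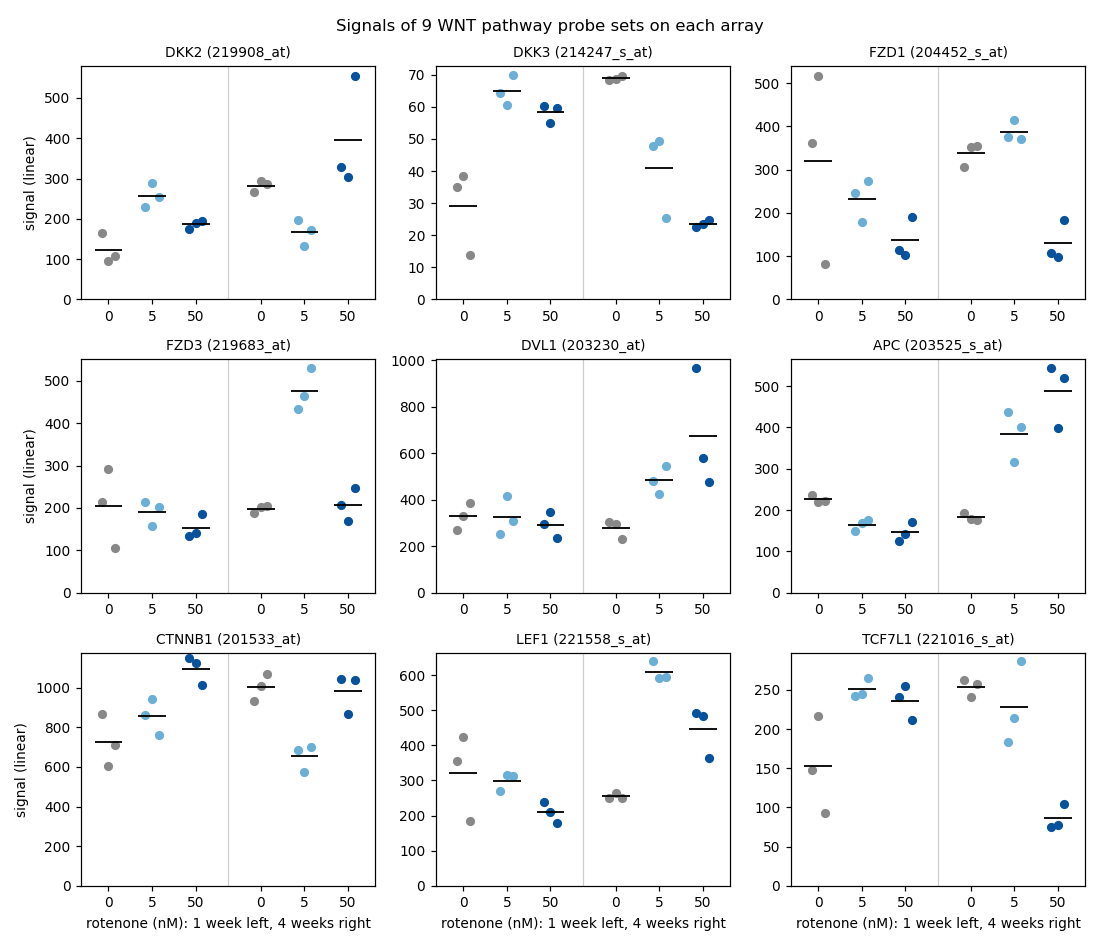
Signal (linear, y axis from 0) of 9 pathway probe sets on each of the 18 arrays, by rotenone dose at 1 week (left of the gray line) and 4 weeks (right); points are arrays and bars the means of 3. The 3 arrays of the 4-week vehicle lie close together for most genes, the 1-week vehicle arrays far apart for FZD1, FZD3, LEF1 and TCF7L1.

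Of the receptors, 13 probe sets of 10 genes were tested. With 5 nM at 4 weeks 4 rose and none fell (FZD2, FZD3, FZD5 and FZD6), and with 50 nM 2 rose (FZD5 and FZD6) and 2 fell (FZD1 and LRP6). Between the doses FZD1, FZD2 and FZD3 were lower and FZD4 higher with 50 nM than with 5 nM, and FZD7 and FZD9 were called in none of these comparisons. FZD3, a receptor for axon guidance and neural tube closure, was at 189, 202 and 204 in the 4-week vehicle, at 434, 465 and 529 with 5 nM and at 206, 169.9 and 247 with 50 nM. Every 5 nM array was above every array of the other 2 groups at 4 weeks. FZD3 rose by 1.26 ± 0.26 log2 units with 5 nM (adjusted p = 0.0016), the value with 50 nM was 0.05 ± 0.26 (adjusted p = 0.895), and 50 nM was lower than 5 nM by 1.21 log2 units (-1.21 ± 0.26, adjusted p = 0.0048). FZD3 is on chromosome 8, whose 521 probe sets tested had a median of 0.34 with 5 nM and -0.27 with 50 nM at 4 weeks, and -0.55 between the doses. Less that median, FZD3 was at 0.92 with 5 nM, at 0.32 with 50 nM and at -0.65 between the doses.

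FZD1, a receptor of the β-catenin branch, was also lower with 50 nM than with 5 nM. Its probe set 204452_s_at was at 306, 353 and 355 in the 4-week vehicle, at 375, 414 and 371 with 5 nM, and at 107, 98.4 and 184 with 50 nM. With 50 nM it fell by 1.44 ± 0.45 log2 units against vehicle (adjusted p = 0.017) and was 1.63 ± 0.45 lower than with 5 nM (-1.63, adjusted p = 0.019). Its second probe set, 204451_at, was at 247, 326 and 278 in vehicle, 465, 498 and 524 with 5 nM, and 179.7, 190.0 and 235 with 50 nM, called between the doses (-1.31 ± 0.44, adjusted p = 0.049) but against vehicle with neither dose. The 1-week vehicle arrays, which share the fit, held 362, 517 and 82.5 on 204452_s_at, and without the last of these the adjusted p of the fall against vehicle was 7.4e-05. Without replicate 1 or 2 of 50 nM at 4 weeks the fall against vehicle was not called (adjusted p = 0.0634 to 0.0661), nor was the difference between doses without either of these or replicate 2 of 5 nM (adjusted p = 0.0631 to 0.0839), and the call of the second probe set was lost without any 1 of 15 arrays (adjusted p = 0.057 to 0.152).

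FZD5 and FZD6 rose with both doses at 4 weeks. FZD5 was at 125, 146 and 133.4 in vehicle, at 176, 181 and 285 with 5 nM and at 292, 224 and 261 with 50 nM (0.63 ± 0.21, adjusted p = 0.025, and 0.94 ± 0.21, adjusted p = 0.0016). At 1 week FZD5 fell with 50 nM, to 60.5, 74.3 and 76.7 against 129.8, 178 and 103 in vehicle (-0.93 ± 0.21, adjusted p = 0.0046). FZD6, a receptor of the planar polarity branch, was at 223, 233 and 224 in the 4-week vehicle, at 351, 290.4 and 642 with 5 nM and at 487, 409 and 428 with 50 nM (0.83 ± 0.22, adjusted p = 0.008, and 0.96 ± 0.22, adjusted p = 0.0023). It lies on chromosome 8 like FZD3, and less the chromosome's median its differences were 0.49 and 1.23. FZD2 was higher with 5 nM at 4 weeks than with vehicle (0.62 ± 0.23, adjusted p = 0.046) and than with 50 nM (50 nM against 5 nM -0.71 ± 0.23, adjusted p = 0.043), and FZD4 was higher with 50 nM than with 5 nM (0.79 ± 0.21, adjusted p = 0.016). The calls of FZD2 were lost without any 1 of 12 and of 14 arrays (adjusted p = 0.0514 to 0.166), that of FZD4 without replicate 2 of 5 nM or replicate 1 or 3 of 50 nM (adjusted p = 0.0542 to 0.101), and that of FZD5 with 5 nM without replicate 1 or 3 of vehicle or replicate 3 of 5 nM (adjusted p = 0.0653 to 0.135). Of the coreceptors, LRP6 fell with 50 nM at 4 weeks on 1 of 2 probe sets (-0.53 ± 0.16, adjusted p = 0.015; not called without replicate 3 of vehicle or replicate 2 of 50 nM, adjusted p = 0.0583 to 0.0618). LRP5 was called in no comparison, with a difference of 0.34 ± 0.13 with 5 nM at 4 weeks (adjusted p = 0.051).

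DVL1, the scaffold that carries the signal from the receptors, rose with both doses at 4 weeks. It was at 304, 294 and 231 in vehicle, at 482, 424 and 544 with 5 nM and at 967, 578 and 477 with 50 nM. The rise was 0.81 ± 0.24 log2 units with 5 nM (adjusted p = 0.015) and 1.23 ± 0.24 with 50 nM (adjusted p = 0.00062), and with 5 nM it was not called without replicate 3 of vehicle or of 5 nM (adjusted p = 0.053 to 0.0738). The 2 probe sets of DVL2 were called in no comparison. Of the 2 probe sets of DVL3, 1 fell with 50 nM at 4 weeks (-0.57 ± 0.22, adjusted p = 0.048), a call lost without any 1 of 12 arrays (adjusted p = 0.0514 to 0.148). With 50 nM at 4 weeks the other DVL3 probe set was at -0.25 ± 0.18 (adjusted p = 0.29).

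In the destruction complex the scaffold APC and the kinase CSNK1A1 rose on some of their probe sets with both doses after 4 weeks. The kinase GSK3A fell with both, and the scaffold AXIN1 was not called. Of 15 probe sets of 6 genes tested, 4 rose and 2 fell with 5 nM at 4 weeks and 5 rose and 1 fell with 50 nM, while at 1 week none was called with 5 nM and 6 fell with 50 nM. APC, the tumor suppressor that holds the complex together, was at 192, 178 and 177 on its brightest probe set (203525_s_at) in the 4-week vehicle, at 437, 318 and 402 with 5 nM and at 544, 398 and 519.8 with 50 nM. It rose by 1.07 ± 0.15 log2 units with 5 nM (adjusted p = 8.8e-05) and by 1.41 ± 0.15 with 50 nM (adjusted p = 5.9e-06). A second APC probe set (203526_s_at) gave 0.90 ± 0.21 and 1.05 ± 0.21 (adjusted p = 0.0038 and 0.00089). At 1 week both were lower with 50 nM than with vehicle: 124, 142 and 172 against 237, 219 and 223 on the first (-0.64 ± 0.15, adjusted p = 0.0072), and 103, 48.0 and 101 against 173, 168 and 135 on the second (-0.99 ± 0.21, adjusted p = 0.0038). Against the 4-week vehicle these 1-week differences were -0.33 (adjusted p = 0.222) and -0.66 (adjusted p = 0.074). The other 2 APC probe sets tested were called in no comparison with vehicle.

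CSNK1A1, casein kinase 1 alpha, which primes β-catenin for GSK3, followed the same course at smaller size. With 50 nM at 1 week 4 of its 6 probe sets tested fell (-0.38 to -0.79), and at 4 weeks 2 rose with 5 nM (0.32 and 0.39) and 3 with 50 nM (0.39 to 0.48). CSNK1A1 lies on chromosome 5, whose probe sets tested had a median of 0.16 with 5 nM and 0.12 with 50 nM at 4 weeks. Less that median these rises were 0.16 and 0.23 with 5 nM and 0.26 to 0.36 with 50 nM. On 213086_s_at the signals at 1 week were 679, 597 and 757 with 50 nM, against 924, 913 and 919.6 in vehicle, and at 4 weeks 799.8, 844 and 850.0 in vehicle, 1095, 968 and 1221 with 5 nM and 1181, 1125 and 1179 with 50 nM. The groups with rotenone lay outside the range of their vehicle each time. Several of these calls turn on single arrays: on that probe set the 1-week call was lost without replicate 2 of 50 nM (adjusted p = 0.0503), and on 213860_x_at the call with 5 nM at 4 weeks was lost without any vehicle array or replicate 3 of 5 nM (adjusted p = 0.0505 to 0.0823) and the 1-week call without replicate 1 of vehicle or replicate 1 or 2 of 50 nM (adjusted p = 0.053 to 0.0817). The 1-week call of 208867_s_at was lost without replicate 1 or 2 of 50 nM (adjusted p = 0.0562 to 0.0732). Both calls of CSNK1A1 with 5 nM at 4 weeks were lost with quantile normalization. There the limma differences were 0.27 on 213086_s_at (adjusted p = 0.062) and 0.24 on 213860_x_at (adjusted p = 0.063).

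GSK3A, 1 of the 2 kinases that mark β-catenin, was at 634, 619.8 and 754 in the 4-week vehicle, at 386, 417 and 487 with 5 nM and at 377, 451 and 414 with 50 nM. It fell by 0.64 ± 0.12 and 0.69 ± 0.12 log2 units (adjusted p = 0.00093 and 0.00032), and was not called at 1 week. GSK3A lies on chromosome 19, whose probe sets tested had a median of -0.21 with 5 nM and -0.26 with 50 nM at 4 weeks. Less that median GSK3A was at -0.43 with 5 nM and at -0.43 with 50 nM. GSK3B, its partner, fell with 5 nM at 4 weeks to 239, 213 and 229.5, against 271, 302 and 312 in vehicle (-0.37 ± 0.12, adjusted p = 0.023), and with 50 nM was at -0.21 ± 0.12 (adjusted p = 0.17). That call was lost without replicate 2 or 3 of vehicle or replicate 2 of 5 nM (adjusted p = 0.0748 to 0.0896). AXIN1, the limiting scaffold of the complex, and both probe sets of BTRC were called in no comparison; at 4 weeks AXIN1 was at 0.15 ± 0.14 with 5 nM (adjusted p = 0.44) and at -0.0036 ± 0.14 with 50 nM (adjusted p = 0.986).

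CTNNB1, the gene of β-catenin, fell with 5 nM at 4 weeks and was not called with 50 nM. It was at 866, 604 and 710.0 in the 1-week vehicle, at 865, 944 and 763 with 5 nM and at 1149, 1125 and 1013 with 50 nM, and at 931, 1007 and 1068 in the 4-week vehicle, at 685, 577 and 703 with 5 nM and at 1042, 867 and 1041 with 50 nM. The 5 nM arrays at 4 weeks lay under every array of the other 2 groups of that week. The fall was 0.62 ± 0.14 log2 units (-0.62, adjusted p = 0.0025), the value with 50 nM was -0.03 ± 0.14 (adjusted p = 0.88), and 50 nM was above 5 nM by 0.59 ± 0.14 (adjusted p = 0.0074). At 1 week CTNNB1 rose with 50 nM by 0.61 ± 0.14 (adjusted p = 0.0052); set against the 4-week vehicle the difference was 0.13 and not called. The array measures the transcript, while the pathway acts mostly on the protein, which was not measured here.

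**Figure D3:**
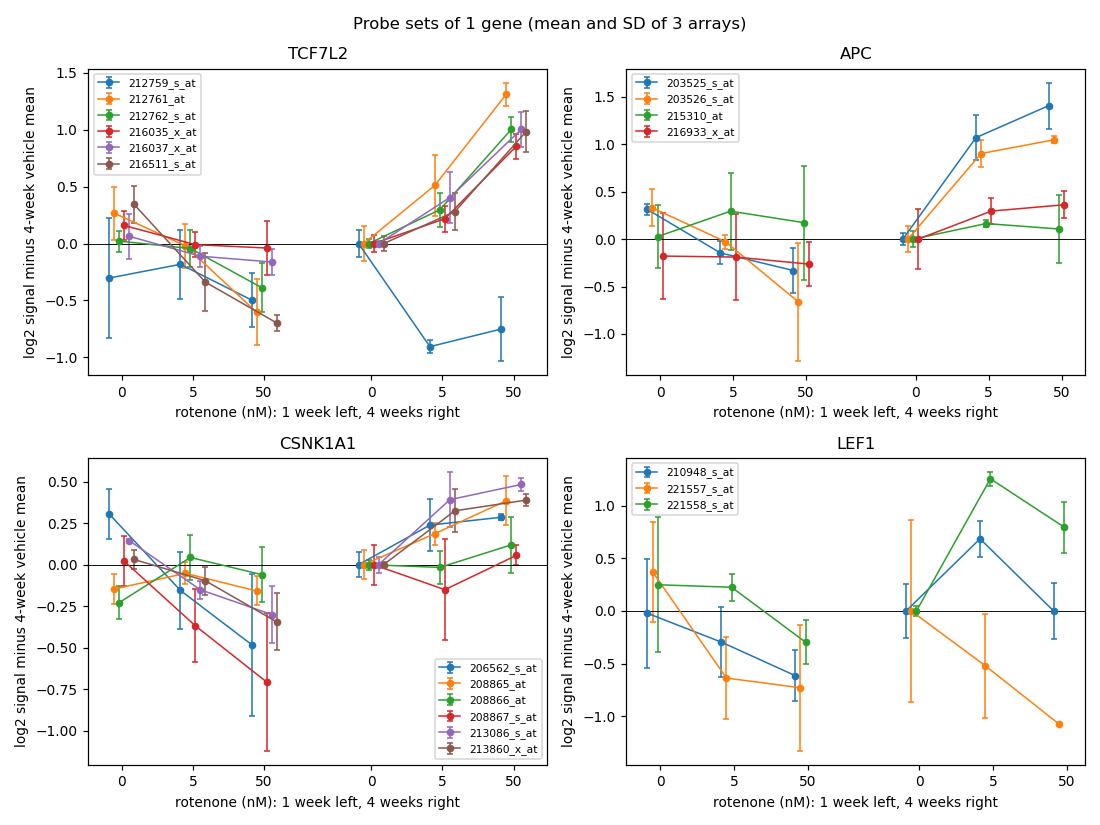
Log2 signal (floored at 16) minus the mean of the 4-week vehicle (y axis) of every tested probe set of TCF7L2, APC, CSNK1A1 and LEF1, by dose at 1 week (left) and 4 weeks (right); points are means and bars SDs of 3 arrays. For TCF7L2, 5 of 6 probe sets rose with 50 nM at 4 weeks and 1 fell, and for APC 2 of 4 rose.

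The LEF/TCF factors, which β-catenin binds on DNA, moved in different directions. Of 10 probe sets of 3 genes, 4 rose and 1 fell with 5 nM at 4 weeks and 6 rose and 3 fell with 50 nM. TCF7L2, known as a susceptibility gene of diabetes, had 5 of 6 probe sets higher with 50 nM than with vehicle at 4 weeks, by 0.85 to 1.31 log2 units. On the probe set with the largest change (212761_at) the signals were 198, 205 and 241 in the 4-week vehicle, 280.1, 268 and 378 with 5 nM and 569, 534 and 492 with 50 nM (0.51 ± 0.18, adjusted p = 0.032, and 1.31 ± 0.18, adjusted p = 2.6e-05). The signal climbed with the dose, and the difference between 50 nM and 5 nM was called on the same 5 probe sets (0.60 to 0.80). At 1 week 3 of these were lower with 50 nM than with vehicle (-0.41 to -1.04), with 92.5, 90.0 and 99.0 with 50 nM against 184, 178 and 219.7 in vehicle on 216511_s_at, which was also lower with 5 nM (-0.68 ± 0.15, adjusted p = 0.01). The call of 216511_s_at with 5 nM was lost without replicate 2 of that dose (adjusted p = 0.0695), and the smallest of the 3 with 50 nM, that of 212762_s_at, without any 1 of 5 arrays (adjusted p = 0.0504 to 0.157).

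Probe set 212759_s_at of TCF7L2 went against the other 5. It was at 65.8, 77.3 and 73.5 in the 4-week vehicle, at 38.3, 37.0 and 40.1 with 5 nM and at 35.9, 41.4 and 53.0 with 50 nM (-0.91 ± 0.23, adjusted p = 0.0068, and -0.75 ± 0.23, adjusted p = 0.016). It was the dimmest of the 6, and whether it reads another transcript of the gene was not tested. Its call with 50 nM was lost without replicate 2 of vehicle or replicate 1 of 50 nM (adjusted p = 0.0556 to 0.0808). The 2 calls with 5 nM at 4 weeks among the other 5 were also lost without single arrays (adjusted p = 0.0928 to 0.144 for the first, without replicate 1 or 2 of vehicle or replicate 3 of 5 nM, and 0.0731 to 0.126 for 216037_x_at, without any vehicle array or replicate 1 or 3 of 5 nM), whereas their 50 nM calls against vehicle held without each of the 18 arrays. Between the doses the call of 216037_x_at was lost without replicate 2 of 5 nM or replicate 1 of 50 nM (adjusted p = 0.0502 to 0.0503).

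TCF7L1, which mostly acts as a repressor, fell with 50 nM at 4 weeks. It was at 263, 241 and 258 in the 4-week vehicle, at 183, 214 and 287 with 5 nM and at 75.2, 77.6 and 105 with 50 nM. The fall was 1.58 ± 0.23 log2 units against vehicle (-1.58, adjusted p = 5.4e-05) and 1.40 ± 0.23 against 5 nM (-1.40, adjusted p = 0.00086), and with 5 nM the difference was -0.18 ± 0.23 (adjusted p = 0.585). At 1 week it was at 148, 217 and 93.1 in vehicle, at 242, 245 and 266 with 5 nM and at 241, 255 and 212 with 50 nM, called as higher with both (0.80 ± 0.23, adjusted p = 0.044, and 0.71 ± 0.23, adjusted p = 0.035). Those 1-week calls were lost without replicate 3 of the 1-week vehicle (0.49, adjusted p = 0.101, and 0.39, adjusted p = 0.114), the first without any 1 of 14 arrays and the second without any 1 of 4, and against the 4-week vehicle the differences were -0.017 and -0.11.

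LEF1, the factor of this group that is itself a target in many tissues, rose at 4 weeks on its brightest probe set (221558_s_at): 249.6, 265 and 250.4 in vehicle, 641, 591 and 595 with 5 nM and 492, 483 and 365 with 50 nM. The rise was 1.26 ± 0.22 log2 units with 5 nM (adjusted p = 0.00046) and 0.80 ± 0.22 with 50 nM (adjusted p = 0.0086). LEF1 lies on chromosome 4 like DKK2, and less the chromosome's median these differences were 0.97 and 0.51. A second probe set (210948_s_at) rose with 5 nM (0.69 ± 0.23, adjusted p = 0.032), a call lost without replicate 1 or 2 of either group (adjusted p = 0.0641 to 0.135), and with 50 nM was at -0.0029 ± 0.23 (adjusted p = 0.993). The third (221557_s_at) had 4.55, 13.4 and 8.13 with 50 nM, all under the floor of 16, against 17.0, 50.8 and 44.5 in vehicle, so its call as lower (adjusted p = 0.039) rests on values at the floor and was lost with a floor of 32 (adjusted p = 0.115) or without any 1 of 5 arrays (adjusted p = 0.0734 to 0.177).

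Among the TLE corepressors, 9 probe sets of 5 genes were tested, 1 rose and 1 fell with 5 nM at 4 weeks, and 2 rose and 2 fell with 50 nM. TLE5, a short form that lacks the WD-repeat domain of the others, fell with both doses: 647, 713 and 630.0 in the 4-week vehicle, 406, 467 and 390.0 with 5 nM and 394, 330.0 and 400.0 with 50 nM (-0.66 ± 0.20, adjusted p = 0.017, and -0.83 ± 0.20, adjusted p = 0.0031). With 5 nM the call of TLE5 was lost without replicate 2 of vehicle or replicate 1 or 3 of 5 nM (adjusted p = 0.0502 to 0.0623). TLE5 lies on chromosome 19 like GSK3A, and less the chromosome's median its differences were -0.45 and -0.57. TLE3 separated the doses. On 212769_at it was at 83.4, 83.3 and 74.7 in vehicle, at 111, 123 and 122 with 5 nM and at 69.2, 62.4 and 86.0 with 50 nM (5 nM against vehicle 0.56 ± 0.17, adjusted p = 0.017; 50 nM against 5 nM -0.72 ± 0.17, adjusted p = 0.0077).

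Probe set 206472_s_at of TLE3 was lower with 50 nM than with 5 nM (-1.02 ± 0.33, adjusted p = 0.043), a call lost without any 1 of 12 arrays (adjusted p = 0.0533 to 0.153). The call of 212769_at with 5 nM was lost without replicate 3 of vehicle or replicate 2 of 5 nM (adjusted p = 0.0508 to 0.0676). TLE2 and TLE6 were higher with 50 nM than with 5 nM at 4 weeks (TLE2 0.62 ± 0.17, adjusted p = 0.02, and TLE6 0.74 ± 0.19, adjusted p = 0.015) and than with vehicle (TLE2 on 1 of 2 probe sets, 0.46 ± 0.17, adjusted p = 0.041, and TLE6 0.70 ± 0.19, adjusted p = 0.0082). Both genes lie on chromosome 19 like TLE5. Less the chromosome's median the rises against vehicle were 0.71 for TLE2 and 0.96 for TLE6. At 4 weeks TLE6 was dim, at 44.8, 31.2 and 38.3 in vehicle and at 44.1, 37.0 and 30.4 with 5 nM. With 50 nM it was at 73.35, 48.6 and 64.0. Only 4 arrays reached 50 signal units for TLE6, all of them of 50 nM and from both weeks. It therefore passed the filter only through that dose, with which it was called as higher at 4 weeks and was not called against vehicle at 1 week. TLE1 fell with 50 nM at 4 weeks on 1 of 2 probe sets (-0.49 ± 0.14, adjusted p = 0.011). The call of TLE1 and both calls of TLE6 were lost without replicate 1 of 50 nM, and also without replicate 2 of vehicle or, between the doses, replicate 3 of 5 nM (adjusted p = 0.0503 to 0.0929). Those of TLE2 were lost without replicate 1 or 2 of either group, and against vehicle also without replicate 3 of vehicle (adjusted p = 0.0595 to 0.174). TLE4, the remaining member, stayed at or under 36.7 on every array.

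Directly between the doses, 11 pathway probe sets were higher and 7 lower with 50 nM than with 5 nM at 4 weeks (9.53% and 7.07% of all probe sets were), with a median of -0.01. By gene, those higher were 5 probe sets of TCF7L2, 2 of TLE2, and DKK2, CTNNB1, FZD4 and TLE6, and those lower were 2 probe sets each of FZD1 and TLE3, and FZD2, FZD3 and TCF7L1. At 1 week limma called none of the 62 between the doses, with 12 at an unadjusted p under 0.05, and 1 of the 13705 (0.0073%). Against vehicle at 4 weeks 16 probe sets were called the same way with both doses, none the opposite way, 8 with 5 nM and not 50 nM, and 12 with 50 nM and not 5 nM. Over all 13705 probe sets 4442 were called with 5 nM and 5620 with 50 nM at 4 weeks, and their overlap was not counted. Both comparisons use the same 3 vehicle arrays.

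The effect of a dose differed between the weeks for many pathway genes. The difference of the 5 nM effects, 4 weeks minus 1 week, was called for 23 of 62 probe sets (13 up and 10 down), where 32.3% of all were called, and that of the 50 nM effects for 26 (16 up and 10 down), where 45.2% of all were. Of the probe sets called against vehicle at both times, 2 of 2 with 5 nM (DKK2 and DKK3) and 10 of 10 with 50 nM had opposite signs. The same held for most transcripts, 488 of 502 with 5 nM and 1691 of 1751 with 50 nM. With 50 nM the 10 were 2 probe sets of APC, 2 of CSNK1A1, 3 of TCF7L2 and that of FZD5, lower at 1 week and higher at 4 weeks, and DKK3 and TCF7L1, higher at 1 week and lower at 4 weeks.

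**Figure D4:**
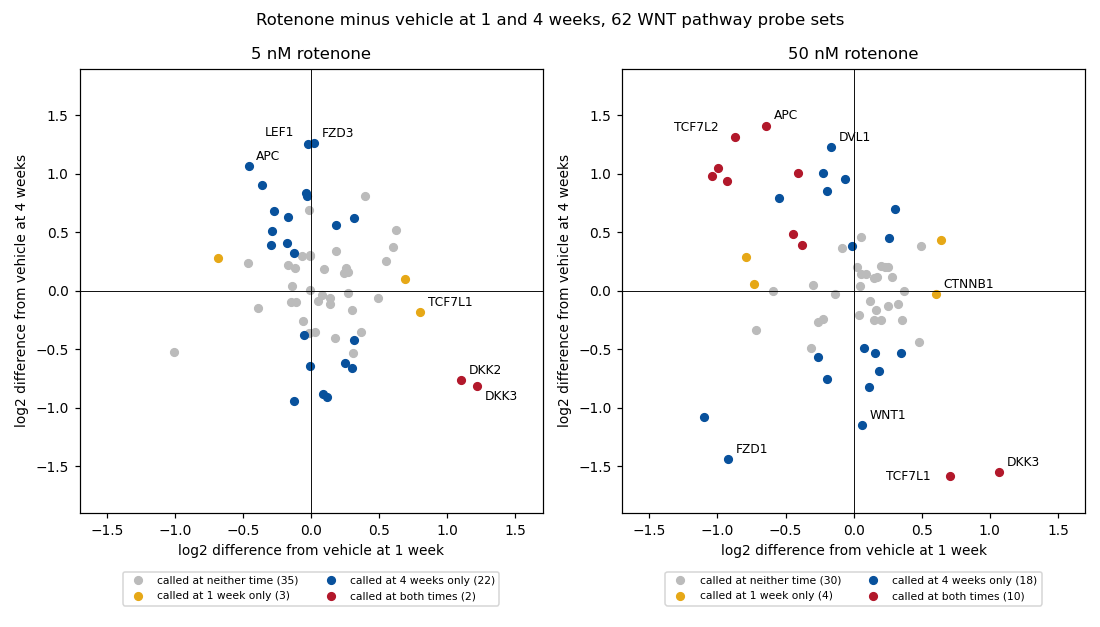
Log2 difference from vehicle at 1 week (x axis) and at 4 weeks (y axis) for the 62 pathway probe sets, with 5 nM on the left and 50 nM on the right; color shows the times at which a probe set was called. The points called at both times lie in the quadrants of opposite sign, DKK2 and DKK3 with 5 nM and 10 probe sets with 50 nM.

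Other regulators of the pathway that the rule does not take, a list of 89 genes of which 61 passed the filter with 101 probe sets, showed 28 rises and 14 falls with 50 nM at 4 weeks (27.7% and 13.9%, where 22.9% and 18.1% of all did; median 0.13, against 0.01 for all probe sets tested). With 5 nM at 4 weeks 21 rose and 13 fell (20.8% and 12.9%, where 18.3% and 14.1% of all did). Without single arrays 18 to 33 rose and 9 to 16 fell with 50 nM, and 13 to 28 rose and 10 to 15 fell with 5 nM. The corepressor CTBP2 rose on all 5 of its probe sets with 50 nM, and the one with the largest change averaged 189 ± 11.6 in the 4-week vehicle, 471 ± 91.6 with 5 nM and 524 ± 51.2 with 50 nM (SD), a rise of 1.30 ± 0.15 and 1.47 ± 0.15 log2 units (adjusted p = 1.6e-05 and 4.8e-06). LGR4, the receptor for R-spondins that strengthen WNT signals, averaged 126 ± 25.5 in vehicle, 189 ± 13.8 with 5 nM and 276 ± 26.9 with 50 nM (50 nM against vehicle 1.15 ± 0.23, adjusted p = 0.00068). MAP3K7, the kinase TAK1, rose on 3 of 4 probe sets with 50 nM, at most by 1.13 ± 0.16 (adjusted p = 4.1e-05). PPARD had 1 probe set that rose (1.40 ± 0.27, adjusted p = 0.00051) and 1 that fell.

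Known target genes of the pathway, a list of 57 genes of which 35 passed the filter with 68 probe sets, were more often called as lower than as higher with 50 nM at 4 weeks. This list and that of the regulators were chosen with earlier results of these data known, so their shares describe the lists and test nothing. Of the 68 probe sets 35 fell and 7 rose (51.5% and 10.3%, where 18.1% and 22.9% of all did), with a median of -0.61 against 0.01, and by gene 21 fell and 3 rose. The falls were 27 to 37 and the rises 3 to 7 when each array in turn was left out. With 5 nM at 4 weeks 15 fell and 3 rose (22.1% and 4.41%, where 14.1% and 18.3% of all did), with a median of -0.14, and without single arrays 11 to 18 fell and 1 to 7 rose. The mesenchymal regulators TWIST1 and SNAI2 were among them: TWIST1 averaged 2057 ± 78.0 in the 4-week vehicle, 1948 ± 71.8 with 5 nM and 552 ± 189 with 50 nM (SD; 50 nM against vehicle -1.95 ± 0.44, adjusted p = 0.0019), and SNAI2 averaged 236 ± 26.6, 145 ± 25.3 and 61.6 ± 11.01 in the same order of dose (-1.95 ± 0.29, adjusted p = 6.5e-05). SNAI2 lies on chromosome 8, whose probe sets tested had a median of -0.27 with 50 nM at 4 weeks.

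FN1, fibronectin, fell on 5 of 5 probe sets with 50 nM at 4 weeks, by 1.81 to 4.07 log2 units. On the probe set with the largest change it averaged 1444 ± 47.9 in vehicle, 904 ± 196 with 5 nM and 185 ± 258 with 50 nM (SD; -4.07 ± 1.07, adjusted p = 0.0056), and the developmental factor TBX3 fell by 1.72 log2 units (-1.72 ± 0.59, adjusted p = 0.026). CCND1, the cyclin that drives entry into S phase, fell on both probe sets (-0.92 and -1.03), as did SOX2, SOX9, ID2, EPHB3 and CCN1 on both of theirs. VEGFA, a target of several pathways, rose on 4 of 4 probe sets (0.71 to 1.13), JAG2, a Notch ligand, on 2 of 2 (0.94 and 1.00), and MYC, the growth regulator, on its probe set (0.46). Fibroblast markers moved with them: 14 of their 22 probe sets fell and 1 rose with 50 nM at 4 weeks (63.6% and 4.55%, where 18.1% and 22.9% of all did). The summed signal of 10 fibroblast markers (COL1A1, COL1A2, COL3A1, DCN, LUM, PDGFRB, THY1, FAP, POSTN and LOX) ranged at 4 weeks over 6562 to 6785 in vehicle, 4754 to 6292 in the 5 nM arrays and 4396 to 4885 in the 50 nM arrays. At 1 week it ranged over 4005 to 5115 in vehicle, 6653 to 6841 in the 5 nM arrays and 6169 to 6790 in the 50 nM arrays. With 5 nM at 4 weeks COL1A2, the brightest, averaged 1097 against 3142.5 in vehicle, and COL1A1, PDGFRB and FAP were also lower. The rest averaged higher, such as COL3A1 (1173 against 830). Of the 22 probe sets 6 fell and 1 rose there (27.3% and 4.55%, where 14.1% and 18.3% of all did), with a median of 0.43. With 50 nM all but COL1A1 and POSTN averaged lower than vehicle. Other marker lists also differed at 4 weeks. The summed signal of 5 epithelial markers, most of it KRT18, ranged over 3218 to 3544 in vehicle, 1489 to 1713 in the 5 nM arrays and 1473 to 2522 in the 50 nM arrays, and EPCAM was at 22.2 to 75.5 and CDH1 at or below 13.7 on all 18 arrays. That of 7 neuroblast markers ranged over 457 to 471 in vehicle, 439 to 455 in the 5 nM arrays and 331 to 364 in the 50 nM arrays. That of 4 blood markers, led by PTPRC, ranged over 455 to 519 in vehicle, 1416 to 1664 in the 5 nM arrays and 259.9 to 350.4 in the 50 nM arrays. Of 9 Ewing family probe sets 5 fell and 1 rose with 50 nM at 4 weeks (55.6% and 11.1%), with a median of -0.55. Over all probe sets 18.1% fell and 22.9% rose. Both probe sets of CCND1 were among the Ewing family falls. None of the target list is in the fibroblast list, but CCND1 is also an Ewing family marker here and MYCN a neuroblast marker. The part of such cells or programs in the falls was not tested.

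**Figure D5:**
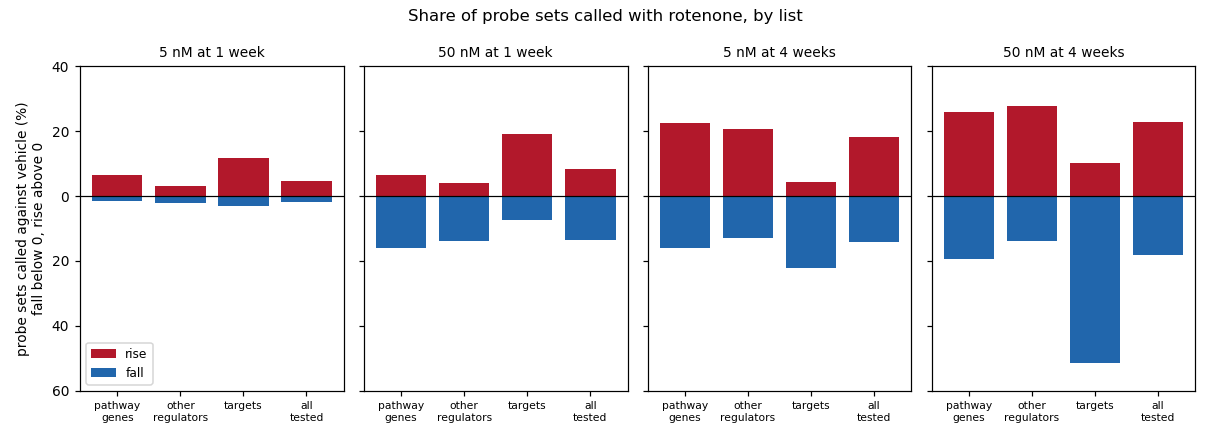
Percent of probe sets called as higher (above 0) or lower (below 0) with rotenone than with the vehicle of the same week, for the 62 pathway probe sets, the 101 of other regulators, the 68 of targets and all 13705 tested. The bars of the pathway and of the regulators are near those of all probe sets, and the share of target probe sets that fell with 50 nM at 4 weeks was 51.5%. The lists of regulators and targets were chosen with earlier results of these data known.

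At 1 week the target list ran the other way. With 5 nM 8 target probe sets rose and 2 fell (11.8% and 2.94%, where 4.79% and 1.88% of all did), and with 50 nM 13 rose and 5 fell (19.1% and 7.35%, where 8.23% and 13.6% of all did; median 0.31, against -0.01 for all). When each array in turn was left out, 2 to 16 rose and 0 to 3 fell with 5 nM, and 5 to 14 rose and 3 to 7 fell with 50 nM. On the 1-week vehicle arrays FN1 averaged 488 ± 437 and TWIST1 1270.0 ± 903 (SD). Against the 4-week vehicle no target probe set was higher and 3 were lower with 50 nM at 1 week.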

How the data were processed

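Total RNA of the 18 pooled cultures was hybridized to Affymetrix human genome arrays, 1 sample an array. The deposited values are intensity signals on a linear scale (0.46 to 11258.4), which the authors normalized and summarized to model-based expression indexes in dChip; the version and the normalization method are not given in the sources used here. An array has no read depth, and the 3 arrays a group limit the precision. Signals were floored at 16 and taken to log2. Left out were 68 control probe sets, 1043 with several genes, 2107 with none, and those under 50 on more than 15 arrays, which left 13705 probe sets of 9162 genes. Group means were fitted over all 18 arrays in limma 3.58.1 (R 4.3.3) with an intensity trend (12 residual and 5.68 prior degrees of freedom), each probe set on its own, and p-values were adjusted by Benjamini-Hochberg over all probe sets within each comparison. Errors are SE for differences and SD for signals. The fit was tested on simulated data, where over the 6 comparisons of doses and vehicle within a week changes of 2-fold were called in 71% to 81.5% of cases and changes of 1.5-fold in 15.5% to 27.5%. There each probe set had the same normal spread in all groups, and 200 of 13705 probe sets were changed. In the data the 1-week vehicle arrays spread more and many more probe sets were called, so these shares need not hold there. Tables and plots were made with Python 3.11.15, numpy 2.4.6, pandas 2.3.3 and matplotlib 3.10.9.

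Values on every array were given for genes called at 2-fold or more with either dose or between the doses at 4 weeks. Core members (CTNNB1, APC, AXIN1, GSK3A, GSK3B, CSNK1A1, BTRC, DVL, LRP5, LRP6, LEF1 and the TCF7-like genes) were named whatever their values. Up to 4 genes of the lists of regulators and targets were named by fold; the other genes named were chosen after their values were seen. The members, the lists and the tests were chosen with earlier results of these data known. Alternatives were other floors, normalizations, filters, summaries of a gene's probe sets, variance models, array weights, a replicate block, the methods' t-test, another vehicle at 1 week, an exchange of a pair of 1-week arrays, and leaving out each array.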

Additional observations from a re-analysis of the deposited data

Results flagged for a closer look

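These are some of the probe sets of named genes whose effect of a dose differed between 4 weeks and 1 week. The test was limma's, of the difference itself (4-week effect minus 1-week effect, log2 scale, adjusted p below 0.05). With 5 nM the difference was positive for APC (1.53 on 203525_s_at and 1.26 on 203526_s_at), TCF7L2 (0.80 on 212761_at, 0.58 on 216037_x_at and 0.96 on 216511_s_at), FZD3 (1.24) and LEF1 (1.28 on 221558_s_at), and negative for DKK3 (-2.04), DKK2 (-1.86) and TCF7L1 (-0.98). With 50 nM it was positive for DVL1 (1.40), APC (2.05 on 203525_s_at and 2.04 on 203526_s_at), TCF7L2 (2.18 on 212761_at, 1.41 on 212762_s_at, 1.23 on 216037_x_at and 2.03 on 216511_s_at) and LEF1 (1.34 on 221558_s_at), and negative for WNT1 (-1.21), DKK3 (-2.61) and TCF7L1 (-2.29). Over all probe sets tested the difference was called for 32.3% with 5 nM and 45.2% with 50 nM, and each uses the vehicle of both weeks.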

How the results depend on the processing

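The counts of pathway probe sets called that moved by over 1.5 times are given with the range without single arrays. With 5 nM at 1 week (5 called) the count was 3 with the mean of each gene's probe sets, 0 with only the arrays compared, 3 with no intensity trend, 1 with array weights, 3 with a replicate block, 3 with a pair of 1-week arrays exchanged, 0 with the 4-week vehicle, 2 by the methods' t-test and 0 by it after Benjamini-Hochberg, and 1 to 8 without single arrays. With 50 nM at 1 week (14) it was 7 with the brightest probe set of each gene, 8 with the mean, 1 with only the arrays compared, 3 with the 4-week vehicle, 1 and 0 by the methods' t-test, and 9 to 24 without single arrays. With 5 nM at 4 weeks (24) it was 37 with array weights, 3 and 1 by the methods' t-test, and 14 to 31 without single arrays. With 50 nM at 4 weeks (28) it was 16 with the brightest probe set, 15 with the mean, 9 and 6 by the methods' t-test, and 21 to 29 without single arrays. Between the doses at 1 week (0) it was 1 with only the arrays compared, 23 with array weights, 1 with the exchange, and 0 to 5 without single arrays. Between the doses at 4 weeks (18) it was 10 with the brightest probe set, 11 with the mean, 29 with array weights, 5 and 0 by the methods' t-test, and 9 to 22 without single arrays. Between the vehicles (3) it was 0 with only the arrays compared, 0 by the methods' t-test after Benjamini-Hochberg, and 1 to 6 without single arrays. For the difference of the 5 nM effects (23) it was 15 with the brightest probe set, 12 with the mean, and 15 to 30 without single arrays, and for the 50 nM effects (26) 17, 14, and 23 to 29; the methods' t-test was not run on these. Target probe sets called with 50 nM at 1 week (18) were 9 with the brightest probe set, 9 with the mean, 3 with only the arrays compared, 8 with array weights, 3 with the 4-week vehicle, 4 and 0 by the methods' t-test, and 9 to 19 without single arrays. At 4 weeks (42) they were 21 with the brightest probe set, 22 with the mean, 20 and 11 by the methods' t-test, and 32 to 44 without single arrays. Regulator probe sets at 4 weeks (42) were 27 with the brightest probe set, 25 with the mean, 64 with array weights, 7 and 4 by the methods' t-test, and 27 to 48 without single arrays. The alternatives for the targets and regulators were chosen after seeing the data. Against the 4-week vehicle the 1-week differences changed sign for DKK3 (-0.088 with 5 nM and -0.24 with 50 nM), DKK2 (-0.14 and -0.60) and TCF7L1 (-0.017 and -0.11). Fewer tests enter where a gene has 1 value; the cause of the other shifts was not tested. Of 69 calls of named genes, 42 held without each single array. Quantile normalization ended 7 of the 69. With 5 nM at 4 weeks these were DKK3 (adjusted p = 0.055), CSNK1A1 (213086_s_at 0.062, 213860_x_at 0.063) and TCF7L2 (212761_at 0.069, 216037_x_at 0.111). The others were DVL3 (201907_x_at) with 50 nM against vehicle at 4 weeks (0.053) and TLE3 (206472_s_at) between the doses at 4 weeks (0.054). Replicate numbers did not pair the arrays: over 45 pairs the correlation of deviations was -0.50 to 0.36 with a median of -0.03, and the replicate block ended 5 of the 69 calls.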
